A study of Homo sapiens with 6 samples.

Results

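Cohesin positions that were listed in control cells and in neither of the other conditions were examined in IMR90, a line of human fetal lung fibroblasts, by CUT&Tag with an antibody against the cohesin subunit SMC1. In CUT&Tag a transposase is brought to the chromatin that an antibody marks, and the DNA it cuts there is sequenced. Peaks of the 3 SMC1 libraries on chromosomes 1 to 22 and X were joined into loci wherever whole peaks shared at least 1 bp, and the members were the loci with a peak of the control library alone. There were 2004 such loci among 22580 SMC1 loci, which is 8.88% of them, and each held exactly 1 control peak. They made up 13.6% of the 14736 loci with a control peak. The members were thus chosen by measured values, namely the presence of a peak in 1 list and its absence from the other 2, and that absence is no result here.

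The SMC1 libraries came from control cells, for which the labels name no vehicle, with the p number 16 in their title, from cells of the same p number treated with ICM (inflachromene, a compound known to bind the HMGB proteins) and from cells with the p number 34, taken as the senescent sample of the series design. CTCF libraries, used here to describe the loci, came from control cells with the p number 21, from cells with the p number 16 after 6 days of ICM and from senescent cells with the p number 34. The label of the SMC1 library of ICM-treated cells gives no number of days. Each of the 6 groups was 1 library, so no difference between conditions could be set against a spread between replicates, and no test was made. Intervals (95%, exact Clopper-Pearson) cover the counting of loci, genes or promoter windows only. Nuclear peaks numbered 14883 (control), 17809 (ICM) and 12927 (senescent) for SMC1 and 4673, 6728 and 8577 for CTCF, and the exact number of reads behind each list is not given in the sources used here, where the methods state only a minimum for all libraries. At 7 of 12 fibroblast markers the control list held an SMC1 peak over the promoter, against 1 of 7 epithelial, 0 of 4 endothelial and 1 of 5 leukocyte markers, and none of these genes had a control-only locus at its promoter.

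Cohesin is a ring-shaped complex of SMC1, SMC3, RAD21 and a STAG subunit that holds sister chromatids together and extrudes chromatin loops in interphase. Loop extrusion halts at CTCF, a DNA-binding insulator protein, so that many cohesin peaks coincide with CTCF sites. Others lie at active promoters and enhancers, where the loader NIPBL is found and where CTCF need not be bound. Senescent fibroblasts have left the cell cycle for good, and loss of LMNB1 (lamin B1 of the nuclear lamina) and of EZH2 (the methyltransferase of Polycomb complex 2) is a known mark of that state.

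The promoters of LMNB1 and EZH2, genes picked by hand with earlier results of these data known, were both members. Their sequences are shown with those of LOX and MYO5A, the protein-coding genes at the strongest promoter members for which RefSeq's table of promoter windows had an entry, and with CCNB1 and H2BC10, which were chosen after their values were seen to stand for the cell cycle and the histone genes described further on. Each window runs from 250 bases before to 50 bases after a gene start and is written 5′ to 3′ on the strand of the gene, from RefSeq on GRCh38.p14. Capitals mark matches, on either strand, to any of 13 short motifs. These were the SP/KLF box GGGCGG, the ETS core CCGGAAG, the CCAAT box CCAAT bound by NF-Y, the NRF1 site GCGCATGCG, the YY1 site AAGATGGCG, the TATA box TATAAA, the CRE TGACGTCA, the AP-1 site TGANTCA, the CTCF core as AGGTGGC or AGGGGGC, the cell cycle homology region TTTGAA, and the E2F site as TTTGGCGC or TTTCCCGC. Matches can share bases, as GGGCGG and AGGGGGC do when they follow each other.
LMNB1, chr5:126776373-126776672, plus strand: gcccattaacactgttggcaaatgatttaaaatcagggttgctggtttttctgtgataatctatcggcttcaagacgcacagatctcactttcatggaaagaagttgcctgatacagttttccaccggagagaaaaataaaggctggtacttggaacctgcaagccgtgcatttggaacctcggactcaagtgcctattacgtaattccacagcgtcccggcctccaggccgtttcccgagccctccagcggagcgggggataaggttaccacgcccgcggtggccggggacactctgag
EZH2, chr7:148884242-148884541, minus strand: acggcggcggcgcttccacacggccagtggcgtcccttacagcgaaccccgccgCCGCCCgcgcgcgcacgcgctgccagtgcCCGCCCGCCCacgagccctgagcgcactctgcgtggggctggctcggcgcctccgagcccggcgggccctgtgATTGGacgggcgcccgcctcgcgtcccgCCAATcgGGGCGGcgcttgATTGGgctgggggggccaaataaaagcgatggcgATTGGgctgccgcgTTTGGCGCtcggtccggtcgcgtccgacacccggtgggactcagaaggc
LOX, chr5:122078210-122078509, minus strand: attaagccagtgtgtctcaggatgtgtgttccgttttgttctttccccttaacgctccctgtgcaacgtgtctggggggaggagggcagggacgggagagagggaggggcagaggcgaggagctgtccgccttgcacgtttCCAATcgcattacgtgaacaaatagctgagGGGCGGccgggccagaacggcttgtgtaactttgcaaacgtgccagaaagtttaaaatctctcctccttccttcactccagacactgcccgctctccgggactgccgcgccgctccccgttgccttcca
MYO5A, chr15:52529001-52529300, minus strand: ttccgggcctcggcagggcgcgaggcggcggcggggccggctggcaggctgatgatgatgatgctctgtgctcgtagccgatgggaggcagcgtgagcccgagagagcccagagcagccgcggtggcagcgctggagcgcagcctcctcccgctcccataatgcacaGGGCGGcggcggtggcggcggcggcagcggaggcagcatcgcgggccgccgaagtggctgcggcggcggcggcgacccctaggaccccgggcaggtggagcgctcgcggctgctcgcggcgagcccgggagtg
CCNB1, chr5:69166900-69167199, plus strand: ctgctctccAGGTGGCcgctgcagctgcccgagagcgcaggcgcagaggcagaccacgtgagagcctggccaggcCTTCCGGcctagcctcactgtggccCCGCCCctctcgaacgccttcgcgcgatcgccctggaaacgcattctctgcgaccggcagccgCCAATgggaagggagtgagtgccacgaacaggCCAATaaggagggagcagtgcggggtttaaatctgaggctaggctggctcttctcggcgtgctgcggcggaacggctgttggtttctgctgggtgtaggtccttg
H2BC10, chr6:26272681-26272980, plus strand: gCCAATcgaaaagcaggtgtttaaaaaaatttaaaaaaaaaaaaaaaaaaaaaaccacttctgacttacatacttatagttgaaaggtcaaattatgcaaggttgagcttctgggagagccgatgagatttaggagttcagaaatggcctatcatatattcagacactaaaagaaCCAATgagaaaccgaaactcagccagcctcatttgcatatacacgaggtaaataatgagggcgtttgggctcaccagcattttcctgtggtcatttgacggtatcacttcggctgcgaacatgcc

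The window of EZH2 held 4 matches to the SP/KLF box, 4 to the CCAAT box and 1 to the E2F site TTTGGCGC, and its GC content was 74.7%. CCNB1 had 2 CCAAT boxes, 1 SP/KLF box, 1 ETS core and 1 match to AGGTGGC. No motif matched in the LMNB1 window, which holds 16 CpG dinucleotides. H2BC10 was the poorest in GC of the 6, at 39%, with 8 CpG dinucleotides and 2 CCAAT boxes. The windows shown therefore ranged from GC-rich promoters with 46 CpGs, as in EZH2, to AT-rich ones.

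Control-only loci were weak and slightly narrow among the control peaks. Total signal, which SEACR, the peak caller used by the authors, sums over a peak, ranged from 3456 to 20862 in the members with a median of 4157.5, against a median of 7528 for control peaks in loci of all 3 lists. The highest signal within a peak had a median of 14 in the members, where it ranged from 4 to 40, and of 24 in loci of all lists. The methods describe a calibration of human to E. coli reads, but do not say whether these values carry it, so each peak was also placed by its percentile within the control list. By total signal the median member was at the 20.9th percentile, with quartiles at 9.42 and 36.1, and by highest signal at the 20.5th. Peaks shared with the senescent list alone had medians at 28.8 and 20.5, those shared with the ICM list alone at 36.5 and 44.6, and those of all 3 lists at 67.6 and 63.5. By highest signal, members and peaks shared with senescent cells alone thus had the same median.

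The lowest total signal admitted to the control list was 3456, and 568 members (28.3%) lay within 10% above it. In the upper part of the list, above its median, were 227 members (11.3%) by total signal and 325 (16.2%) by highest signal, and the top 10% held 4 and 3. When the control list was divided into quintiles by total signal, members were 968 of 2976 peaks in the lowest quintile (32.5%, 30.8 to 34.2), 20.9% in quintile 2, 9.71% in quintile 3, 3.70% in quintile 4 and 14 of 2977 (0.470%, 0.257 to 0.788) in the highest. The share held by a single list therefore fell across the whole range of signal, and nearly all of the strongest control peaks had a partner elsewhere.

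**Figure D1:**
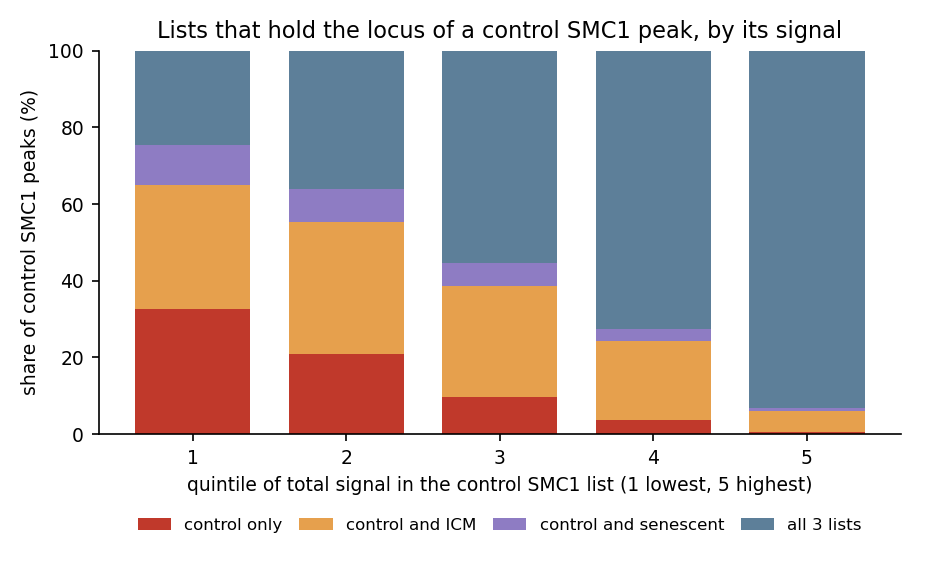
Share of the control SMC1 peaks (vertical axis, percent) in each quintile of the control list by total signal (horizontal axis), divided by the SMC1 lists that hold the same locus. The control-only part shrank from 32.5% of the lowest quintile to 0.470% of the highest, while loci of all 3 lists grew from 24.7% to 93.2%.

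The median member was 864 bp wide (quartiles 675.75 and 1085 bp, range 289 to 2986 bp). Control peaks in loci of all 3 lists had a median of 977 bp, those shared with senescent cells alone 959 bp and those shared with ICM-treated cells alone 791 bp. Peaks of 2 kb or more were rare among the members, with 13 of 2004 (0.649%, 0.346 to 1.11), and made up 4.32% (3.89 to 4.77) of control peaks in all lists. Divided by width, total signal gave a median of 5.12 per bp in the members and 7.77 in loci of all lists, so that the members were lower in mean height rather than only shorter.

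Promoters were frequent among the control-only loci despite their low rank. A peak was counted at a promoter when its summit, the middle of the stretch of highest signal, was no more than 1 kb from a gene's 5′ end. This held for 931 of 2004 members (46.5%, 44.3 to 48.7), and for 836 (41.7%) when only protein-coding genes counted. The share was 40.8% (39.8 to 41.9) in control peaks of all 3 lists, 37.6% (36.04 to 39.2) in those shared with ICM alone and 43.95% (40.6 to 47.3) in those shared with senescent cells alone. The intervals of members and of peaks shared with senescent cells overlapped. This comparison is among control peaks. Loci listed only in ICM-treated or only in senescent cells are not part of it, so a high promoter share is not shown to be particular to the members. Of the other members, 33.0% had their summit inside a protein-coding gene, 5.14% inside another gene and 15.4% between genes.

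The promoter share of control peaks rose with signal, and within bands of like signal the members stood further from the loci of all lists than over the list as a whole. In the lowest quintile by total signal, 40.7% (37.6 to 43.9) of members and 20.98% (18.1 to 24.1) of peaks of all lists were at promoters. These shares were 48.3% and 26.4% in quintile 2, 57.4% and 33.1% in quintile 3 and 60.9% (51.1 to 70.1) and 43.6% (41.5 to 45.7) in quintile 4. In none of these 4 bands did the intervals of the 2 classes overlap. The highest quintile held only 14 members, of which 3 were at promoters, against 54.1% of its peaks in all lists. Peaks shared with senescent cells alone ran between 35.9% and 58.4% over the same 4 bands, and their interval overlapped that of the members in each.

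**Figure D2:**
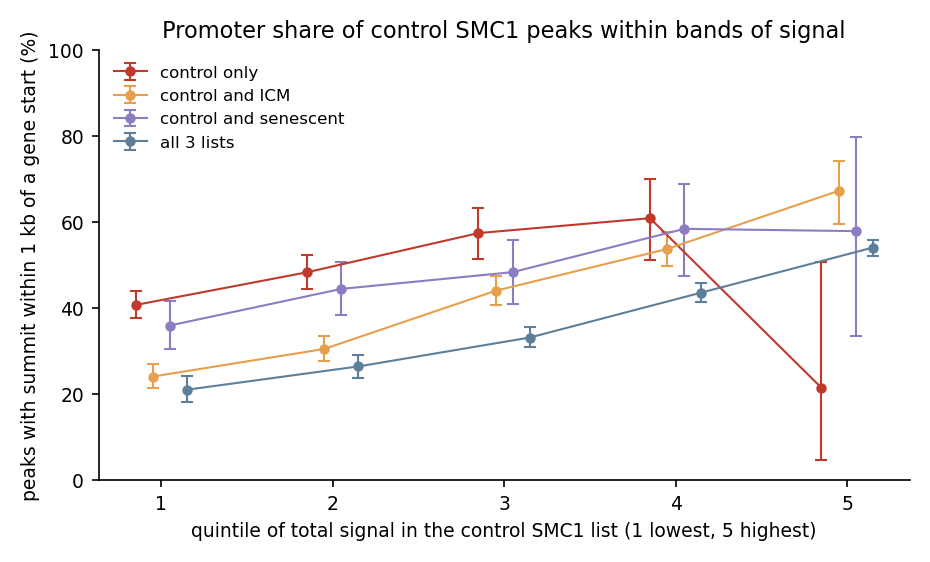
Share of control SMC1 peaks with the summit within 1 kb of a gene start (vertical axis, percent) in each quintile of the control list by total signal (horizontal axis), for the classes of loci, with exact 95% intervals as bars. Control-only peaks lie above peaks of all 3 lists in the 4 lower quintiles, from 40.7% against 20.98% to 60.9% against 43.6%, and rest on 14 peaks in the highest.

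The median distance from a summit to the nearest gene start was 1707 bp over all members, 711 of them (35.5%) were within 250 bp and 152 (7.58%) more than 50 kb away. Control peaks of all 3 lists had a median distance of 3201 bp, with 30.8% within 250 bp and 8.09% past 50 kb. The share within 250 bp was 30.7% for peaks shared with ICM alone and 31.4% for those shared with senescent cells alone. Among promoter members, 38.7% of summits lay downstream of the start, and the median position was 39 bp upstream. The corresponding median was 68 bp upstream in loci of all 3 lists, where 32.4% lay downstream. Divergent promoters, with protein-coding starts on both strands within 1 kb, were 89 of 836 protein-coding promoter members (10.6%, 8.64 to 12.9) and 18.3% (16.9 to 19.7) of such peaks in all lists. Peaks shared with ICM alone had 12.9% (11.07 to 14.99) and those shared with senescent cells alone 15.7% (12.01 to 20.1). Both of these intervals overlapped that of the members.

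RefSeq promoter windows that overlapped a member numbered 1194 and were GC-rich. Several windows can lie under 1 peak and share bases, so intervals over windows treat related sequences as independent and are too narrow. Their median GC content was 67.7%, against 65.7% for the 5009 windows at peaks of all lists and 58.7% for all 34789 windows. A CpG ratio of 0.6 or more, the observed number of CpGs over that given by base composition, was found in 90.6% (88.8 to 92.2) of members' windows, 86.8% (85.8 to 87.7) of those in all lists and 48.8% of all windows. The share was 90.3% at peaks shared with ICM alone and 86.1% at those shared with senescent cells alone. Members' promoters were thus mostly of the CpG island kind, like other promoters with cohesin.

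Motif content was compared with that of other promoters with control cohesin and with all windows. Of the 13 motifs, the ETS core, the CCAAT box and TTTGAA had intervals that did not overlap between members and loci of all lists. These intervals count windows and are too narrow for the reason given above. The SP/KLF box, in 72.4% of members' windows, was in 73.7% of windows at loci of all lists and in 44.9% of all windows. The ETS core was in 22.5% (20.2 to 25.01), 17.1% (16.1 to 18.2) and 10.2% in the same order, and in 22.8% of windows at peaks shared with ICM alone. A CCAAT box was found in 34.4% (31.7 to 37.2) of members' windows, 41.4% (39.997 to 42.7) of those in all lists and 34.6% of all windows. It was in 36.2% (34.02 to 38.5) of windows at peaks shared with ICM alone. At peaks shared with senescent cells alone it was in 31.2% (27.1 to 35.5), and both intervals overlapped that of the members. The cell cycle homology region TTTGAA matched in 10.6% (8.94 to 12.5) of members' windows, 7.99% (7.25 to 8.77) of those in all lists and 15.2% of all windows. For the NRF1 site the shares were 3.02%, 4.55% and 1.90%, for the YY1 site 3.27%, 4.11% and 1.76%, and for the TATA box 4.19%, 4.29% and 11.6%. The CTCF core was matched as AGGTGGC in 8.04%, 7.23% and 6.74% and as AGGGGGC in 22.3%, 20.5% and 14.3%. The remaining motifs matched in fewer than 4% of members' windows, with the E2F site as TTTGGCGC in 0.503% and as TTTCCCGC in 3.60%, the AP-1 site in 3.85% and the CRE in 3.10%, while windows at loci of all lists held them in 1.14%, 2.76%, 5.31% and 3.35% and all windows in 0.653%, 1.63%, 7.69% and 1.84%. These matches describe the letters of the windows, not binding.

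Control-only loci lay at the promoters of 1223 genes, of which 941 were protein-coding and 243 encoded long non-coding RNAs. The protein-coding ones were 4.79% of the 19630 with a known start, and 915 of them had no other SMC1 promoter peak in any list. In the control list as a whole 31.6% of protein-coding genes had a promoter peak, and in the ICM and senescent lists 27.6% and 22.3%. Members count in the first of these shares, and their peaks are absent from the other lists by the rule. Beside the background of 4.79%, the share of genes with a control-only locus was compared over lists of genes chosen by function.

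Genes of the cell cycle and mitosis were among the lists with the largest share, 11 of 61 (18.03%, 9.36 to 29.98). They were ANLN, BUB1B, CCNB1, CCNB2, CDC25C, CDK6, HMMR, KIF23, NUF2, PRC1 and RB1. CDK6, a kinase of G1, had a wide and flat peak of 1867 bp with a total signal of 5778 (50.1th percentile) and a highest signal of 10 (5.47th percentile). An ICM peak and a senescent peak each lay only 812 bp from it. At NUF2, a kinetochore protein, total signal was 5576, and at CCNB1, the mitotic cyclin B1, 5295 at the 43.1th percentile. The peak at CDC25C, the phosphatase that activates the mitotic kinase, had 4824 and also lay at the start of FAM53C, and that at NUF2 also at a start of RGS5. Over the same 61 genes the control list held a promoter peak at 36, the ICM list at 25 and the senescent list at 18. The rule sets part of this difference, since the peaks of the members are absent from the other lists by choice.

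Replication-dependent histones, whose genes are transcribed in S phase, reached 12 of 69 (17.4%, 9.32 to 28.4). H2BC10 ranked highest, with a total signal of 7308 (65.8th percentile), and H2AC15 and H2BC15 shared a divergent promoter with 7072. Both count in the 12 though they share 1 peak. The interval treats such neighbouring genes as independent and is too narrow. At H4C1 total signal was 4913. The other 8 were H1-1, H2AC16, H2AC4, H2AC7, H2BC7, H2BC9, H3C4 and H3C7. Here 35 genes had a promoter peak in the control list and 17 in each of the other lists, a difference that the rule again sets in part. The coding sequences of these genes are near copies of each other, and how reads with several matches were placed is not given in the sources used here.

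The extracellular matrix, the main product of fibroblasts, gave 11 of 56 genes (19.6%, 10.2 to 32.4). LOX, the oxidase that cross-links collagen and elastin, had the strongest promoter member of all, 2080 bp wide with a total signal of 14273 (92.0th percentile) and a highest signal of 29 (75.8th). BGN (biglycan) followed with 8124 at the 72.0th percentile, LAMB1 (a laminin chain) with 6333 and FBN2 (fibrillin 2) with 4946. COL16A1, COL6A1, COL8A1, FBLN5, HSPG2, LAMA4 and MMP14 completed the list. Promoter peaks were listed at 38 of the 56 genes in the control list, at 25 in the ICM list and at 19 in the senescent list. Part of this difference, too, is set by the rule.

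The list for the machinery of CTCF and cohesin gave 5 of 31 (16.1%, 5.45 to 33.7). WAPL, which releases cohesin from chromatin, had a total signal of 4890, YY1, a factor found at promoter loops, 4855, and ESPL1, the separase that cuts cohesin at anaphase, 4403. STAG2, a cohesin subunit, was near the foot of the list with 3646 (6.38th percentile). SMC4 belongs to condensin, so 1 of the 5 is outside the machinery that names the list. The interval counts it, and its lower bound of 5.45% is near the background of 4.79%. Chromatin regulators gave 7 of 72 (9.72%, 4.00 to 19.0), with an interval that included the background. They were EZH2, KDM1A, KDM6A, LMNB1, SETDB1, SIRT1 and TET2.

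LMNB1 and EZH2 differed in rank. The LMNB1 peak at chr5:126776522-126777249 lay at the start of the gene, had a highest signal of 32 (80.9th percentile) and was 688 bp from the nearest ICM peak, while the nearest senescent peak was 180859 bp away. That of EZH2 at chr7:148884001-148884778 had a highest signal of 13 (15.8th percentile) and was 110960 bp from an ICM and 110968 bp from a senescent peak. Their total signals were 7730 and 4104. Besides them, KDM6A, an H3K27 demethylase, had 7027, the DNA dioxygenase TET2 5530 and the deacetylase SIRT1 4419.

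Lists of housekeeping genes were nearer to the background of 4.79%. Counts were 7 of 79 for cytosolic ribosomal proteins (8.86%, 3.64 to 17.4), 5 of 61 for DNA replication (8.20%), 4 of 62 for splicing (6.45%), 4 of 67 for DNA repair (5.97%), 3 of 53 for translation initiation (5.66%), 2 of 36 for complex I (5.56%), 2 of 48 for the proteasome (4.17%) and 3 of 77 for mitochondrial ribosomal proteins (3.90%). The strongest of these were RPL3 with a total signal of 6732, EIF3B with 6076, MRPL58 with 5742, RFC2 (a clamp loader subunit) with 5246, HNRNPF with 5132, NDUFB11 with 4831, ERCC3 with 4584 and PSMG3 with 3916. Factors of the senescence-associated secretory phenotype gave 5 of 55 (9.09%, 3.02 to 19.95), namely IGFBP7 with 6784, EGFR with 6091, IL11 with 4489, IGFBP5 with 4172 and MMP14, which is also in the matrix list. Zinc finger genes named ZNF (18 of 509, 3.54%, 2.11 to 5.53) and solute carriers (11 of 393, 2.80%, 1.41 to 4.95) were under the background with intervals that included it, and were led by ZNF517 with 6141 and SLC1A4 with 8522. No member lay at an olfactory receptor (0 of 386) or keratin gene (0 of 55), which allows shares of up to 0.951% and 6.49%, and these genes had 1 and 2 control promoter peaks.

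**Figure D3:**
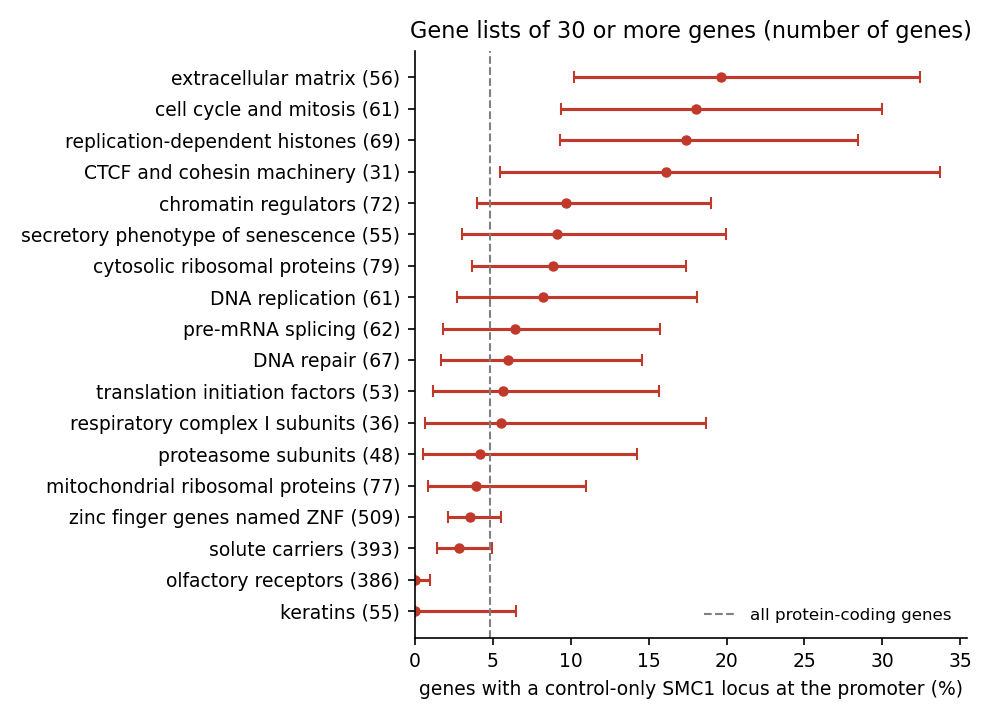
Share of genes with a control-only SMC1 locus at the promoter (horizontal axis, percent) for lists of 30 or more genes (vertical axis, number of genes in parentheses), with exact 95% intervals as bars and the share over all protein-coding genes as a dashed line. The intervals of the matrix, cell cycle, histone and CTCF and cohesin lists lie above the 4.79% of all genes. That of the CTCF and cohesin list begins at 5.45% and counts the condensin gene SMC4.

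The lists also differed in how often cohesin was listed at all, and 59.0% of the cell cycle and 67.9% of the matrix genes had a control promoter peak. Among genes with such a peak, a control-only locus was present at 15.2% (941 of 6207) over all protein-coding genes. The share was 34.3% (12 of 35, 19.1 to 52.2) for histones, 30.6% (11 of 36, 16.3 to 48.1) for the cell cycle and 28.9% (11 of 38, 15.4 to 45.9) for the matrix. It was 25% (5 of 20, 8.66 to 49.1) for the secretory phenotype, 22.7% (5 of 22, 7.82 to 45.4) for CTCF and cohesin, 15.9% (7 of 44, 6.64 to 30.1) for cytosolic ribosomal proteins and 8.70% (4 of 46, 2.42 to 20.8) for splicing, and the intervals of these 4 lists included the share of all genes. Under other rules for overlap and list length the shares of all genes ran from 3.25% to 9.80% for all protein-coding genes, 11.5% to 22.95% for the cell cycle, 11.6% to 24.6% for histones, 12.5% to 33.9% for the matrix and 6.45% to 22.6% for CTCF and cohesin. All 4 lists stayed above the share of all genes under each of these 7 rules, although the interval of the CTCF and cohesin list included that share under 4 of them. In equal-length lists by highest signal the lower bounds for histones and the matrix were 5.14% and 5.18%, near the 5.13% of all genes.

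The strongest members away from gene starts were of another kind. The highest total signal of all members, 20862 (97.6th percentile), was on chromosome 20 at chr20:52422843-52425089 inside the non-coding gene LOC105372666, and the nearest gene start, of LOC107985427, was 20362 bp away. On chromosome 9, 2 members lay next to each other inside PHF2, a histone demethylase with a PHD finger, and the overlapping LOC124902215, at chr9:93669318-93671564 with 19415 and at chr9:93672773-93674407 with 12486, and neither had a CTCF peak. The widest member, 2986 bp, was in CDK17, a cyclin-dependent kinase, 1005 bp past its start and so just outside the promoter limit, with a total signal of 11400 (86.3th percentile) but a highest signal of only 11 (8.40th). A member 4055 bp upstream of the pseudogene RPL7P19 had 11286. Of these 5 loci only that in CDK17 had CTCF peaks, in the control and ICM lists.

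Among promoter members, LOX was followed by the non-coding LOC124901324, inside the osteoblast factor gene RUNX2, with 13472, the second widest member at 2808 bp, by MYO5A, a myosin motor, with 10253 (82.4th percentile), by RUNX1T1, a transcriptional corepressor, with 9627 and by the Wnt receptor FZD1 with 9610. The nearest peak of another list was 861369 bp away at RUNX1T1 and 166 bp away at FZD1. By highest signal the leading members all had 40 (90.1th percentile) and were narrow. They lay inside SHROOM3, which binds actin (713 bp wide), inside NOD1, a sensor of bacterial peptides (602 bp wide), and at the divergent start of POU2F1, an octamer-binding factor, and POU2F1-DT (539 bp), whose total signal of 5761 was at the middle of the list. High total and high peak signal thus picked out different members.

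CTCF peaks were uncommon at the control-only loci. A CTCF peak overlapped 245 members in the control list (12.2%, 10.8 to 13.7), 319 in the ICM list (15.9%, 14.3 to 17.6) and 313 in the senescent list (15.6%, 14.1 to 17.3). Some CTCF list had a peak at 421 members (21.01%), all 3 had at 177 (8.83%), and 1583 members (78.99%, 77.1 to 80.8) had none. At control SMC1 peaks of all 3 SMC1 lists the shares were 33.9%, 44.6% and 39.4%, and 49.3% had a CTCF peak in some list. Peaks shared with ICM alone had 13.7%, 20.5% and 20.2%, and those shared with senescent cells alone 20.1%, 24.5% and 25.9%. Members were thus lowest in each CTCF list among the classes of control peaks, with overlapping intervals for members and peaks shared with ICM in the control CTCF list (12.6 to 14.8 for the latter). Loci listed only in ICM-treated cells had shares of 5.61%, 11.4% and 14.8% in the control, ICM and senescent CTCF lists, with an interval that overlapped that of the members in the last (13.8 to 15.97), and loci listed only in senescent cells had 7.96%, 13.6% and 19.7%.

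The order of the 3 CTCF lists at the members depended on their lengths. When each was shortened to its strongest 4673 peaks by total signal, the order turned, with shares of 12.2% (control), 11.03% (ICM) and 9.33% (senescent). The control CTCF library also had another p number than the control SMC1 library. Within quintiles of signal the share of members with a CTCF peak in some list was 21.2%, 19.7%, 23.2% and 20.9% in the 4 lower quintiles, whereas at peaks of all lists it was 36.1%, 38.3%, 41.03% and 45.5%. Peaks shared with senescent cells alone had shares of 31.1%, 31.03%, 30.8% and 31.5% over these quintiles, and those shared with ICM alone 23.8%, 25.4%, 26.5% and 28.2%. A flat course over the 4 quintiles was thus not particular to the members.

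Promoter members and the others differed in the senescent CTCF list. There 10.7% (8.83 to 12.9) of promoter members and 19.9% (17.5 to 22.4) of other members had a CTCF peak, while the shares were 12.03% and 12.4% in the control and 15.8% and 16.03% in the ICM list. A like difference was seen at peaks shared with ICM alone, with 15.2% and 23.3% in the senescent list. Of single combinations, 71 members (3.54%) had CTCF in the senescent list only, 58 (2.89%) in the ICM list only and 13 (0.649%) in the control list only. CTCF peaks at members ranked near the middle of their own lists, with median percentiles by total signal of 43.3, 48.6 and 53.4 in control, ICM and senescent cells, against 60.8, 63.4 and 70.6 for those at loci of all SMC1 lists.

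**Figure D4:**
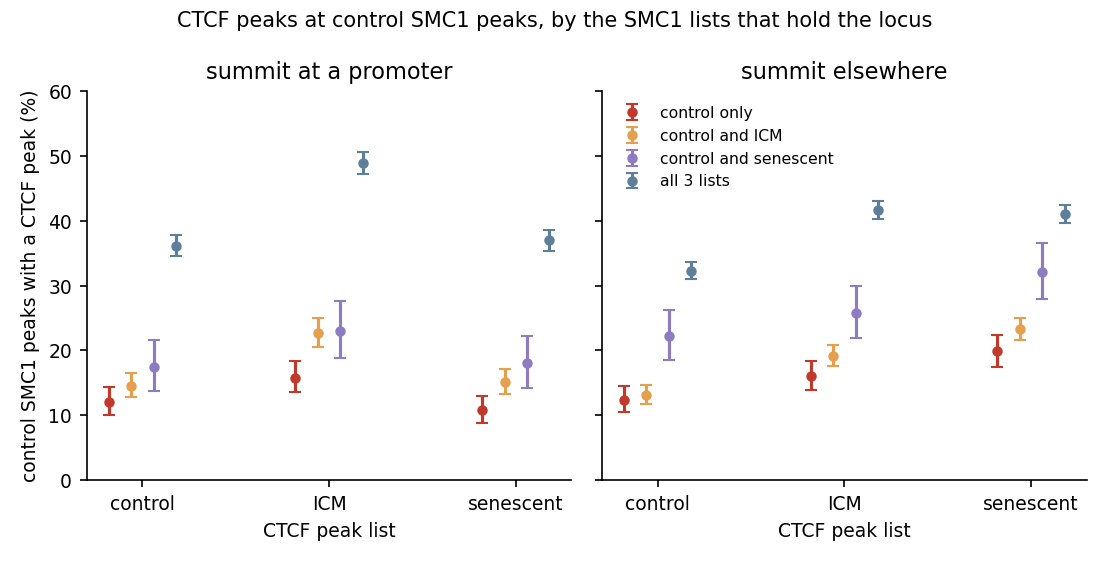
Share of control SMC1 peaks with a CTCF peak (vertical axis, percent) in each CTCF list (horizontal axis), for peaks at promoters (left) and elsewhere (right) and by class of locus, with exact 95% intervals as bars. Control-only peaks are the lowest of these classes in each list, between 10.7% and 19.9%, and peaks of all 3 lists the highest.

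Members with CTCF in all 3 lists had their highest total signals at LOX, at the start of PREP, a prolyl peptidase (9001, 76.8th percentile), and inside SPHK1, a sphingosine kinase (8375). LMNB1 had CTCF peaks in the control and ICM lists and not in the senescent list. MYO5A, RUNX1T1, EZH2, CCNB1 and H2BC10 had none in any. Presence of CTCF went with little difference in cohesin signal, since the median total signal was 4146 at members with a CTCF peak in some list and 4164 at those with none, and the median widths were 889 and 856 bp.

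The rule leaves no overlap with the other SMC1 lists, so the distance to their peaks is set by it in part. The median gap was 24468.5 bp to the nearest ICM peak and 36518 bp to the nearest senescent peak, and 20106 bp to either. A peak of another list lay less than 1 kb away for 171 members (8.53%, 7.35 to 9.84) and less than 10 kb away for 691 (34.5%). The loci listed only in ICM-treated or only in senescent cells had median gaps of 22197 and 18100 bp to either other list, with 6.41% and 7.69% under 1 kb. Promoter members had median gaps of 38683 bp to ICM and 55575 bp to senescent peaks, and the others 16915 and 23204 bp. At the limit of the rule, the members nearest to another list were inside TRAM2, with 1 bp to a senescent peak, BCL6, a transcriptional repressor, with 3 bp and at COL16A1 with 20 bp. The control peaks just outside it, at MIR4665 and BRD10, in ATL2 and upstream of DLX3, each shared 9 bp with an ICM peak. Their total signals (4020, 4288 and 4326 inside, 3793, 4206 and 4879 outside) were alike.

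Members were spread over all chromosomes, with a larger share on X. There 57 of 180 control peaks (31.7%, 24.9 to 39.0) were control-only, against 1947 of 14703 (13.2%, 12.7 to 13.8) on chromosomes 1 to 22, where single chromosomes ran from 8.33% (chromosome 21) to 18.1% (chromosome 6). Within quintiles of total signal the shares on X were 58%, 46.2%, 16.7%, 13.3% and 0% and on the others 32.1%, 20.6%, 9.62%, 3.60% and 0.474%. The control-only share on X was thus the larger in the 4 lower quintiles, of which quintiles 3 and 4 held only 36 and 30 peaks on X. In quintiles 3 and 4 the intervals overlapped, with 6.37 to 32.8 on X against 8.58 to 10.7 and 3.76 to 30.7 against 2.96 to 4.34. Loci of all 3 lists were fewer there, 34.4% (27.5 to 41.9) against 56.6% (55.8 to 57.4). Peaks on X numbered 180 in the control, 165 in the ICM and 99 in the senescent list. The single-list share on X was 27.9% (21.2 to 35.4) in the ICM list, with 23.2% on the other chromosomes, and 19.2% (11.97 to 28.3) in the senescent list, with 17.3%. Summit windows of 100 bp gave 45.6% on X and 26.6% elsewhere, and the other 6 rules 30% to 35.6% and 12.01% to 18.2%.

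Of the 57 members on X 37 were at promoters (64.9%, 51.1 to 77.1), against 45.9% (43.7 to 48.2) of members elsewhere. The promoter share of the other control peaks on X is not given here, so a trait of the members there and one of peaks on X cannot be told apart. CTCF was present in some list at 21.1% of the members on X, as elsewhere (21.01%). The members on X included the promoters of BGN, KDM6A, NDUFB11 (a subunit of respiratory complex I) and STAG2. At STAG2 the nearest SMC1 peak of another list was 3328900 bp away.

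In windows of 10 Mb with at least 20 control peaks, of which there were 237, the median control-only share was 12.8%. Among the windows with the largest shares were X from 10 to 20 Mb with 9 of 22, X from 150 to 160 Mb with 10 of 26, chromosome 6 from 20 to 30 Mb, which holds the main histone cluster, with 19 of 55, and chromosome 6 from 100 to 110 Mb with 12 of 35. The longest run of neighbouring control peaks that were all members had 7 peaks, at chr6:100662850-105403953, and ended at PREP. Elsewhere members were mostly single, and 102 had another member less than 10 kb away.

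**Figure D5:**
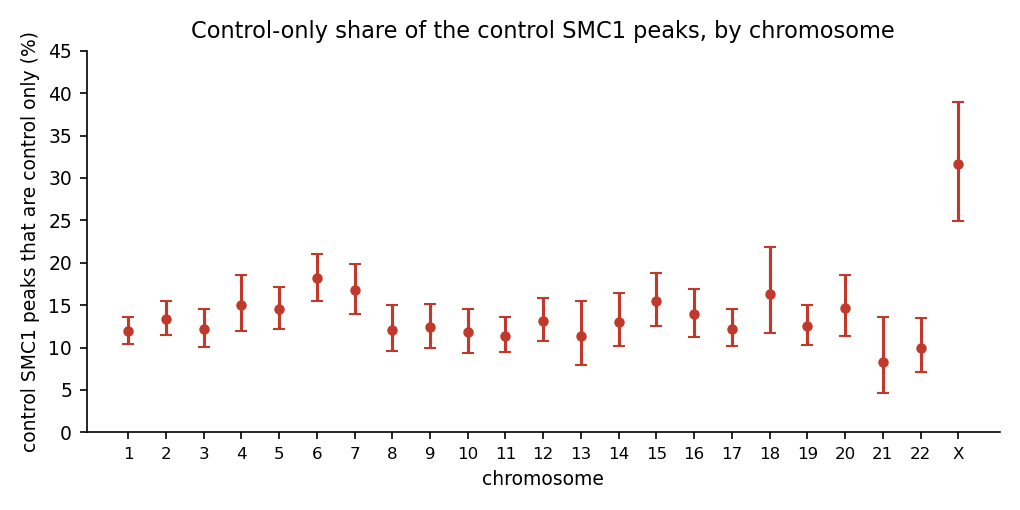
Share of the control SMC1 peaks that were control-only (vertical axis, percent) on each chromosome (horizontal axis), with exact 95% intervals as bars. Chromosome X, at 31.7%, lies above chromosomes 1 to 22, which run from 8.33% to 18.1%.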

How the data were processed

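Peak lists of 6 CUT&Tag libraries of IMR90 were used, 1 per antibody and condition. Per the submitters' processing notes, reads were handled on GRCh38 with Bowtie2 2.3.4.1, Picard 2.20.7, deepTools and SEACR 1.3, and the deposited lists are SEACR's stringent peaks at its top 0.01. For each peak the authors deposited the total signal and the highest signal as whole numbers. The study's methods state a minimum number of reads and a calibration of human to E. coli reads. The exact depth of each list, and whether the deposited signal carries that calibration, are not given in the sources used here, so values are not known to share a scale between lists.

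Peaks were joined, ranked and set against gene starts in Python 3.11.15 (pandas 2.3.3, NumPy 2.4.6, SciPy 1.17.1), and the steps were tested on simulated intervals. The 1 mitochondrial peak of each list was set aside. Percentiles give tied values their mean rank. Gene starts are the outermost 5′ ends of 47057 RefSeq genes (GRCh38.p14), with the strand from GENCODE 44 or from RefSeq's promoter table. The start was known for 98.3% of protein-coding genes and 79.6% of all genes. RefSeq's promoter table has no entry used here for FZD1. No genome of the build of the files was used, so sequences of peaks themselves are not shown.

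Members, gene lists and motifs were chosen with earlier results of these data known. Named genes were the 5 promoter and 5 other members of highest total signal, the 3 of highest signal among the rest, the 2 widest, up to 4 per gene list by total signal, 3 with CTCF in all lists, 3 on each side of the overlap limit, and LMNB1 and EZH2. Genes of the 4 lists with the largest shares were named in full after their values were seen. Alternatives changed the overlap rule, the list length, the promoter limit and the CTCF rule. The alternatives on gene lists, on X and with RefSeq's alternative promoters were chosen after seeing the data.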

Additional observations from a re-analysis of the deposited data

Results flagged for a closer look

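The peak over the mitochondrial genome, which is outside every comparison of the loci, took 20.6% of all listed SMC1 signal in ICM-treated cells and 31.4% in senescent cells, against 12.4% in control cells, and was singled out because both values exceed the control level. In the CTCF lists the same peak took more in control cells, at 27.7%, than in ICM-treated (14.4%) and senescent cells (18.04%). No value of a control-only locus includes this peak, and its part in the lengths of the nuclear lists was not tested.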

How the results depend on the processing

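Of 86 alternative values for the 10 main results, 48 stayed within the interval of the reported value, or within 1.5 times a count. A reversal was defined only for the promoter share minus that of loci of all lists, and none occurred there. Summit windows of 100 bp gave 3997 members at 1924 protein-coding genes, and the upper part of each list, cut at its median, gave 1104 members. The promoter share moved to 56.4% in the upper part of each list, 40.5% within 500 bp, 51.0% within 2 kb, 41.7% for protein-coding genes and 51.0% with the alternative promoters. The promoter share minus that of loci of all lists was 5.62 points and reached 9.71 with summit windows and 10.2 in the upper part, where it stayed positive as under each other setting. The median percentile by total signal became 32.2 with summit windows, 26.0 with reciprocal overlap (at least 50% of both peaks), 31.9 and 28.8 in equal-length lists (12927 peaks) by total and highest signal and 61.6 in the upper part. By highest signal it became 30.02 and 35.1 in equal-length lists and 52.9 in the upper part, which keeps no weak peaks by construction. Median widths were 962 bp with summit windows, 916 bp with reciprocal overlap, 882 and 800 bp in equal-length lists and 1075 bp in the upper part. CTCF shares with summit windows were 19.2% in control, 25.8% in ICM and 21.8% in senescent cells, with reciprocal overlap 16.9%, 22.6% and 19.03%, and with CTCF by summits 6.89%, 9.08% and 11.1%. In the upper part they were 18.1% in control and 24.3% in ICM. CTCF lists of equal length gave 11.03% in ICM and 9.33% in senescent cells. In ICM, joining peaks under 1 kb apart gave 14.3% and leaving out members under 1 kb from another list gave 14.3%. Beyond these constructions the cause was not tested.

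No paired analysis was possible because each group is 1 library. The number of loci depends most on the overlap rule, and absence from a list means only that a locus was not among the strongest regions of that library. The depth behind each list is not given in the sources used here, so a weak peak missed in a shallow library and an absent one cannot be told apart.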
